A study of Mus musculus with 4 samples.

Results

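The 9 genes described here encode 6 ligands of the epidermal growth factor (EGF) family, *Egf*, *Areg*, *Ereg*, *Hbegf*, *Btc* and *Tgfa*, and 3 receptors of the ERBB family, *Egfr*, *Erbb2* and *Erbb3*. They were chosen by name, whatever their level, and are 9 of the 31053 genes in each table of unique molecular identifiers (UMIs, the tags that count single RNA molecules). EGF-family ligands are made as membrane-anchored precursors, are cut from the cell surface by metalloproteases such as ADAM17 and ADAM10, and bind a receptor on the same or a nearby cell. EGFR binds most ligands of the whole family, and ERBB2 binds none and acts as a partner. ERBB3 binds neuregulins and signals mainly through a partner because its own kinase is weak. In the prostate, this pathway is known as a growth signal that acts beside the androgen receptor.

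Single cells came from P2-Runx1:RFP mice of strain ICR (CD-1), in which RFP is made from the P2 promoter of *Runx1*, so that the RFP gate follows that promoter and not a cell type. Adult mice were over 8 weeks old and intact in runs 1, 2 and 3, or castrated for over 4 weeks in runs 1 and 2. EPCAM+ cells were sorted as RFP+ or RFP- from the ventral prostate (VP), the dorsolateral prostate (DLP) and the anterior prostate (AP) and tagged with lipid barcodes (MULTI-seq); lobes of castrated mice were pooled in run 1 and kept apart in run 2. The fourth library held urogenital sinus (UGS) explants taken from E15.5 embryos of strain ICR (CD-1) and cultured with 10 µM dihydrotestosterone, collected on days 0, 1, 3 and 6. Every run pooled its cells into 1 library, so the 3 runs were the replicates of the intact populations, castrated lobes were measured in 1 run, and each explant day was 1 barcode of 1 library.

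The adult runs held 2612, 6034 and 3028 cells and the explant library 7474, with 824, 2194, 1673 and 5198 cells left after filters and barcode assignment, at a median of 9750 to 14784.5 UMIs per cell. Any 2 libraries shared 0 to 6 cell barcodes. Cells were named basal-like or luminal-like by clustering without the 9 genes and their pathway list, and UMIs were summed per run, lobe, RFP gate and compartment into 40 sums of at least 10 cells. Basal markers summed to 5970 to 12764 CPM (UMIs of the genes per 1000000 UMIs of the sum) in basal-like sums and to 9.79 to 2844 CPM in luminal-like sums, and luminal markers to 1916 to 36525 and 8360 to 185130 CPM. In such sums, fewer cells of a type and less RNA per cell cannot be told apart. CPM values are not corrected for transcript length, and levels of different genes were not compared.

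*Ereg*, *Areg* and *Btc* lie within the same stretch of mouse chromosome 5 (GRCm38): *Ereg* at chr5:91074622-91093646 on the plus strand, *Areg* at chr5:91139599-91148432 on the plus strand and *Btc* at chr5:91357261-91402994 on the minus strand. *Egf* lies at chr3:129677565-129755316, *Tgfa* at chr6:86195223-86275719, *Egfr* at chr11:16752203-16918158, *Erbb2* at chr11:98412470-98437716 and *Erbb3* at chr10:128567523-128589652. The promoter of *Areg* is shown because this gene, which encodes amphiregulin, differed widely between runs, populations and explant days, and because the window holds a complete cyclic AMP response element. The window is the 250 bases before the start of the RefSeq gene on the plus strand (GRCm38.p6, chr5:91139349-91139598), with the element TGACGTCA in capitals.
Areg promoter: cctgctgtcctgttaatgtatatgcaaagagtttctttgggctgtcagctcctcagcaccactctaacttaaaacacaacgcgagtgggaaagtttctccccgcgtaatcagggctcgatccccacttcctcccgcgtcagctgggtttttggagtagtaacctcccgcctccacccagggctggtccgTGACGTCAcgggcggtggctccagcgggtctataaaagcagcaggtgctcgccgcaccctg
The element reads the same on both strands, so 1 search covered both, and lies at chr5:91139538-91139545, 61 bases before the start. It was found in 508 of 32851 promoter windows (1.55%), and among the 7 windows of 6 of the genes it was found in that of *Areg* alone. This match describes the letters of the window, and binding was not measured.

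The comparison of RFP+ with RFP- luminal cells of the intact AP asked which ligands and receptors differ between cells with and without activity of the *Runx1* P2 promoter. *Hbegf*, *Btc*, *Areg* and *Tgfa* were higher in RFP+ luminal cells and *Egf* was lower, so the ligands split between the 2 gates. Of the 9 genes, 6 passed the edgeR quasi-likelihood test at a Benjamini-Hochberg adjusted p under 0.05, 5 of them higher and 1 lower, where 22.9% of all 11616 genes tested passed. The median log2 difference was 0.84 over the 9 genes, 1.23 over the 8 without *Ereg*, which had too few luminal UMIs, and 0.11 over all genes tested. The p-values here and below measure the spread between the 3 runs.

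*Egf* encodes the ligand that names the family. It was measured at 113, 89.5 and 116 CPM in RFP- luminal AP cells of runs 1, 2 and 3 and at 22.8, 14.9 and 23.6 CPM in RFP+ luminal AP cells. Every RFP- run was higher than every RFP+ run, and the log2 difference was -2.44 ± 0.29 (SE, adjusted p = 1.07e-06, edgeR quasi-likelihood test with Benjamini-Hochberg adjustment). In single cells, an *Egf* UMI was found in 77.6%, 72.0% and 60% of RFP- luminal AP cells, against 12.98%, 12.6% and 5.48% of RFP+ ones. In hematopoietic-like cells, not split by treatment, the gene is not expected, and 2.27% of run 1 and 1.502% of run 2 carried an *Egf* UMI. These cells had a median of 7428 and 7253 UMIs per cell, against 20281 and 22605 in the RFP- luminal AP cells of these runs.

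*Hbegf*, which lies on chromosome 18 and encodes the heparin-binding ligand, was measured at 1269.5, 917 and 849 CPM in RFP+ luminal AP cells and at 149, 98.0 and 51.4 CPM in RFP- ones. The groups did not overlap, with a log2 difference of 3.27 ± 0.44 (SE, adjusted p = 6.024e-06, edgeR quasi-likelihood test with Benjamini-Hochberg adjustment). *Hbegf* is also an immediate early gene, a class whose transcripts rise within minutes of tissue handling. A list of 12 such genes summed to 7107 to 16004 CPM in the RFP+ sums and to 4151 to 7229 CPM in the RFP- sums, and its part in the result was not tested.

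*Btc*, which encodes betacellulin, was low in both gates, at 11.97, 7.11 and 11.3 CPM in RFP+ luminal AP cells and at 0.652, 0.913 and 0 CPM in RFP- ones. The groups did not overlap, and the log2 difference was 3.602 ± 0.67 (SE, adjusted p = 0.0003185, edgeR quasi-likelihood test with Benjamini-Hochberg adjustment). *Tgfa*, transforming growth factor alpha, was measured at 16.5, 12.9 and 18.2 CPM in RFP+ and at 8.47, 2.44 and 5.72 CPM in RFP- luminal AP cells, again with no overlap. Its log2 difference was 1.61 ± 0.37 (SE, adjusted p = 0.002159, edgeR quasi-likelihood test with Benjamini-Hochberg adjustment), and the adjusted p was 0.1495 without run 2 and 0.06148 without run 3.

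*Areg* was measured at 8.83, 122.8 and 16.6 CPM in RFP+ luminal AP cells and at 0.652, 5.18 and 0 CPM in RFP- ones. Run 2 was the high run in both gates, and the RFP+ sums of runs 1 and 3 lay closer to the RFP- sum of run 2 than to the RFP+ sum of run 2. The log2 difference was 3.99 ± 1.02 (SE, adjusted p = 0.005253, edgeR quasi-likelihood test with Benjamini-Hochberg adjustment), and this call rested on run 2, since the adjusted p was 0.1109 without it. It was also lost, at an adjusted p of 0.07898, when an unnamed cluster described further on was counted as basal. The share of RFP+ luminal AP cells with an *Areg* UMI was 5.77%, 33.7% and 10.96% by run. *Ereg*, which encodes epiregulin, had no UMI in RFP+ luminal AP cells of any run and at most 0.609 CPM in RFP- ones, too few for a comparison.

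Among the receptors, *Erbb3* was measured at 43.3, 36.9 and 30.04 CPM in RFP+ and at 18.2, 16.1 and 31.4 CPM in RFP- luminal AP cells. The ranges overlapped through run 3, and the log2 difference of 0.77 ± 0.28 (SE, adjusted p = 0.04786, edgeR quasi-likelihood test with Benjamini-Hochberg adjustment) was past the threshold by little, as 9 alternative settings gave adjusted p-values of 0.0706 to 0.558. *Egfr* was measured at 11.97, 15.52 and 11.8 CPM in RFP+ and at 9.12, 6.09 and 4.29 CPM in RFP- cells, which did not overlap but did not pass the test (log2 difference 0.84, adjusted p = 0.1563). *Erbb2* was measured at 31.6, 17.5 and 13.4 CPM in RFP+ and at 16.9, 10.4 and 5.72 CPM in RFP- cells, with overlap between runs. Its log2 difference was 0.78 (adjusted p = 0.1848), and with the run as a block, where each run is compared with itself, the adjusted p was 0.03558. *Erbb2* was higher in RFP+ cells in each of the 3 runs.

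**Figure D1:**
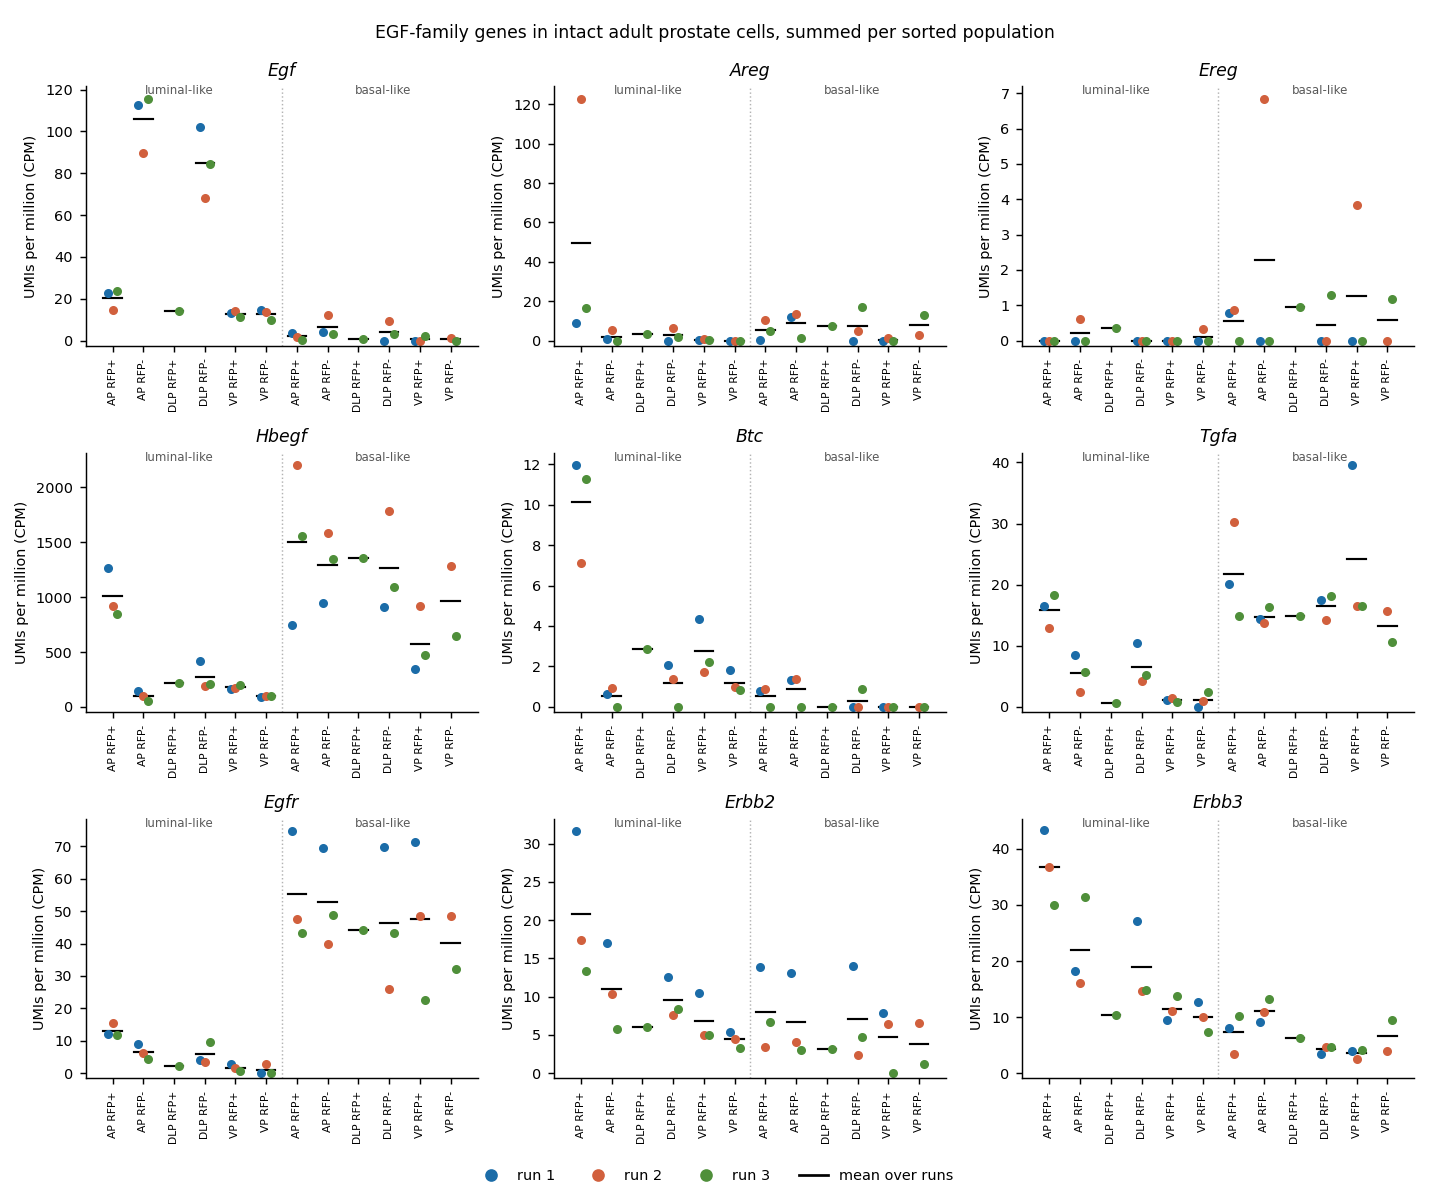
CPM of each gene in the sums of intact mice, 1 panel per gene, by compartment, lobe and RFP gate. Points are runs, coloured by run, and bars are means. *Egf* was highest in RFP- luminal cells of the AP (mean 106 CPM) and DLP (mean 85.0 CPM), and *Egfr* was higher in basal than in luminal cells.

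Leaving out run 2 left 3 of the 9 genes past the threshold in the AP contrast, *Egf*, *Btc* and *Hbegf*, while the total of genes called went from 2663 to 1021, and to 1569 without run 3. Other values moved with the RFP gate in these luminal AP sums. Basal markers summed to 1207 to 2844 CPM in RFP+ and 34.3 to 691 CPM in RFP- sums, with 5 of 5 markers detected in every sum but RFP- of run 3, which held 3 and had *Krt5* and *Trp63* at 0. Of the markers of proximal luminal cells, *Krt4*, *Psca*, *Ly6d* and *Krt7* summed to 5894 to 8029.5 CPM in RFP+ and 8.57 to 1479 CPM in RFP- sums, with *Ly6d* at 0 in RFP- of run 3. Fibroblast markers summed to 45.3 to 131 against 5.72 to 24.1 CPM, with 2 of 5 detected and the 3 collagen genes of the list at 0 in all 6 sums. Endothelial markers summed to 5.41 to 6.47 against 0 to 2.86 CPM, with 0 to 2 of 5 detected and *Cdh5*, *Kdr* and *Plvap* at 0 in all 6 sums, and hematopoietic markers to 47.2 to 78.9 against 109 to 130.02 CPM, with 1 to 4 of 7 detected and *Ptprc* and *Cd3d* at 0 in all 6 sums. In the RFP+ gate, 82.1% to 89.0% of the luminal AP cells of a run fell in luminal cluster 2, led by *Psca* and *Rad51b*, and in the RFP- gate 82.5% to 93.3% fell in luminal cluster 3, led by *9530003J23Rik*. The part of these differences in the result was not tested.

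The same contrast in the VP gave no gene of the 9 past the threshold by edgeR, 1 at an unadjusted p under 0.05, and 0 by DESeq2, where 0.362% of all genes passed (42 genes, and 112 with the run as a block). *Egf* was measured at 13.1, 14.4 and 11.2 CPM in RFP+ and at 14.4, 13.9 and 9.79 CPM in RFP- luminal VP cells, so that the gates overlapped. *Hbegf* was measured at 168, 174 and 197 CPM in RFP+ and at 93.8, 100.5 and 98.7 CPM in RFP- luminal VP cells. The *Hbegf* values did not overlap, with a log2 difference of 0.93 (adjusted p = 0.7016, edgeR quasi-likelihood test with Benjamini-Hochberg adjustment). *Areg* had no UMI in RFP- luminal VP cells of any run and 0.363, 0.921 and 0.294 CPM in RFP+ ones.

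A test of the difference between the lobes, the RFP contrast of the AP minus that of the VP, was past the threshold for 2 of the 9 genes, where 5.53% of all genes passed. The *Egf* contrast was lower in the AP, by -2.52 ± 0.43 on the log2 scale (SE, adjusted p = 0.000833, edgeR quasi-likelihood test with Benjamini-Hochberg adjustment), and that of *Hbegf* was higher, by 2.34 ± 0.59 (SE, adjusted p = 0.01675, the same test). Without run 2 neither passed (adjusted p of 0.07559 for *Egf* and 0.2719 for *Hbegf*), and without run 3 *Hbegf* did not (0.2366). Genes called in this test went from 642 to 21 without run 2 and to 171 without run 3. For the other genes, the difference between the lobes did not pass.

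**Figure D2:**
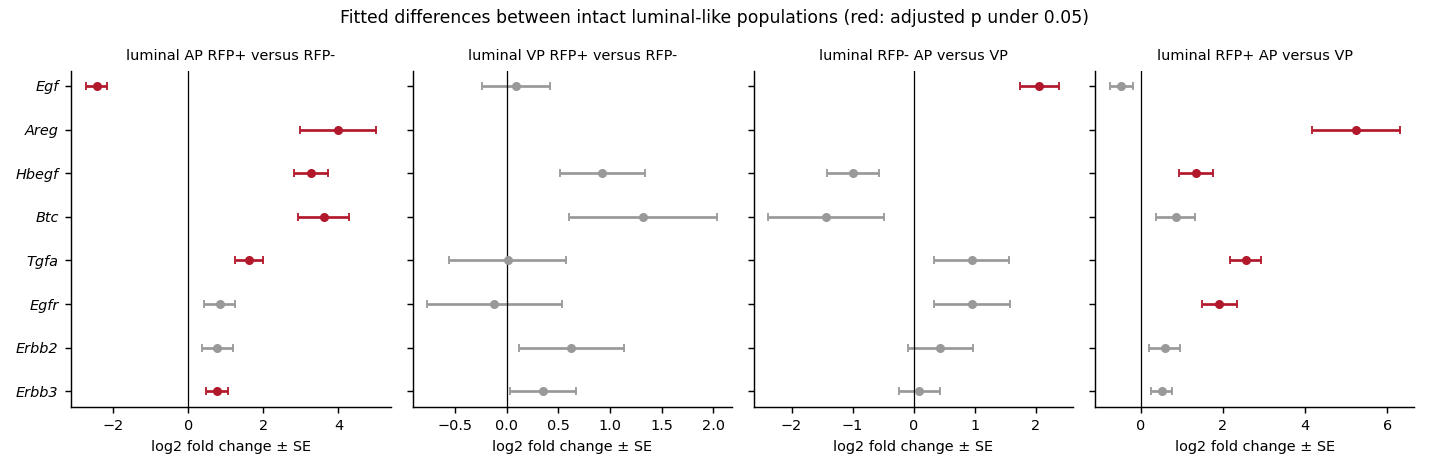
Fitted log2 difference of each gene in 4 contrasts of intact luminal cells, with bars of 1 SE and red points at an adjusted p under 0.05 (edgeR). *Ereg*, and *Areg* where 1 group had no UMI, are left out. *Egf* and *Hbegf* lie on opposite sides of 0 in the AP contrast of the gates, at -2.44 and 3.27.

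Between lobes, *Egf* marked RFP- luminal cells of the AP and DLP apart from those of the VP. In RFP- luminal DLP cells it was measured at 102, 68.2 and 84.5 CPM, which overlapped the AP (89.5 to 116 CPM) and lay over the VP (9.79 to 14.4 CPM). At a finer clustering, *Egf* was higher in RFP- luminal cells of the AP than of the DLP (log2 difference 1.44, adjusted p = 0.01226, edgeR). Ordered by mean, *Egf* was highest in RFP- AP cells (106 ± 14.3 CPM, SD, n = 3), then RFP- DLP (85.0 ± 17.03), RFP+ AP (20.4 ± 4.83), RFP+ DLP (13.98, 1 run), RFP+ VP (12.9 ± 1.61) and RFP- VP (12.7 ± 2.54). Neighbours overlapped except at the steps from RFP- DLP to RFP+ AP and from RFP+ AP to RFP+ DLP. Of the 62 cells in the RFP+ luminal DLP sum, 37 fell in luminal cluster 1, as most RFP+ luminal VP cells did. The edgeR fit also rescales CPM by TMM factors, set by the bulk of genes. These were 0.484 to 0.650 in luminal VP, 0.630 in RFP+ luminal DLP and 1.05 to 1.39 in luminal AP sums. In that fit, the log2 difference of *Egf*, RFP+ AP against VP, was -0.47 (adjusted p = 0.257, edgeR), against the order of the means. Of the 9 genes, *Egf* alone passed the test of RFP- AP against VP (log2 difference 2.06 ± 0.32, SE, adjusted p = 5.673e-05, edgeR quasi-likelihood test with Benjamini-Hochberg adjustment), where 13.9% of all genes passed. Without run 1, *Hbegf* passed as well, lower in the AP (adjusted p = 0.01626, against 0.1268 with all runs).

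*Hbegf* in RFP- luminal DLP cells was measured at 415, 194 and 212 CPM, higher in every run than any RFP- AP value (51.4 to 149 CPM). No gene of the 9 passed edgeR's test of RFP- AP against DLP, 1 did at an unadjusted p under 0.05 and 1 by DESeq2, where 1.54% of all genes passed. That gene was *Hbegf*, with a log2 difference of -1.50 ± 0.42 (SE, adjusted p = 0.07356, edgeR quasi-likelihood test with Benjamini-Hochberg adjustment). The call changed with the setting, as the adjusted p was 0.02083 by DESeq2, 0.01321 with the run as a block and 0.03102 without run 1. The luminal order of *Hbegf* by mean was RFP+ AP (1012 ± 226 CPM, SD, n = 3), RFP- DLP (273.6 ± 122.9), RFP+ DLP (220.5, 1 run), RFP+ VP (179.6 ± 15.4), RFP- AP (99.4 ± 48.6) and RFP- VP (97.7 ± 3.48). RFP- DLP overlapped RFP+ DLP and RFP+ VP, and RFP- AP overlapped RFP- VP. This order is of CPM before TMM factors, and most cells of its RFP+ DLP sum fell in luminal cluster 1. In the edgeR fit, which applies TMM factors, *Hbegf* was lower in RFP- AP than in RFP- VP cells, without passing (log2 difference -0.99, adjusted p = 0.1268).

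Within the RFP+ gate, 4 of the 9 genes were higher in luminal AP than in luminal VP cells and none was lower, where 25.5% of all genes passed. They were 3 ligands and 1 receptor. *Tgfa* was measured at 1.09, 1.496 and 0.882 CPM in RFP+ luminal VP cells against 12.9 to 18.2 CPM in the AP (log2 difference 2.55 ± 0.37, SE, adjusted p = 1.128e-05, edgeR quasi-likelihood test with Benjamini-Hochberg adjustment). *Egfr* was measured at 2.90, 1.61 and 0.735 CPM against 11.8 to 15.52 CPM (1.91 ± 0.43, SE, adjusted p = 0.001322, the same edgeR test). For both genes the lobes did not overlap in any run. *Areg* (5.23 ± 1.07, SE, adjusted p = 0.0006603, edgeR) and *Hbegf* (1.35 ± 0.41, SE, adjusted p = 0.01588, edgeR) were also higher in the AP, but neither passed without run 2 (0.0651 and 0.152), and *Hbegf* did not without run 3 (0.08896). With the run as a block, *Erbb3* passed as well (log2 difference 0.54, adjusted p = 0.04563), with 30.04 to 43.3 CPM in the AP and 9.43, 11.2 and 13.8 CPM in the VP. The CPM of *Tgfa*, *Egfr* and *Erbb3* are given before the TMM factors of the fit, which were 0.517 to 0.584 in these VP sums. Their gaps in CPM are therefore wider than the fitted differences.

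The basal compartment had more *Egfr*, *Hbegf* and *Tgfa* than the luminal one, and less *Egf*, *Btc* and *Erbb3*. Over all intact populations of a run, 7 of the 9 genes had values of the 3 runs that did not overlap between basal and luminal cells, where 51.1% of 14533 genes did not overlap, and no test was made because the compartments are clusters of the same cells. *Egfr* was measured at 73.7, 44.1 and 42.5 CPM in basal and at 7.47, 3.99 and 3.42 CPM in luminal cells, which is 9.86-, 11.1- and 12.5-fold higher in basal cells. *Egf* was measured at 3.30, 4.15 and 1.54 CPM in basal and at 39.2, 32.3 and 25.7 CPM in luminal cells, which is 11.9-, 7.78- and 16.7-fold higher in luminal cells. *Egfr* was higher in the compartment where *Egf* was lower in each of the 3 runs.

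*Hbegf* was higher in basal cells, at 787, 1598 and 1236 CPM against 611, 213 and 269 CPM, as was *Tgfa*, at 20.1, 19.7 and 15.6 CPM against 8.94, 2.77 and 3.82 CPM. *Ereg* counted among the 7 genes on few molecules alone, 2, 9 and 7 UMIs from 1, 5 and 4 basal cells against 0, 3 and 1 UMIs in luminal cells. *Erbb3* was higher in luminal cells, at 25.6, 14.3 and 15.6 CPM against 7.62, 4.93 and 7.97 CPM, and so was *Btc*, at 6.45, 1.88 and 3.01 CPM against 0.762, 0.519 and 0.192 CPM. *Areg* and *Erbb2* overlapped. In RFP+ cells of the AP alone, where 37.2% of 12562 genes did not overlap, 4 of the 9 genes did not: *Egf*, *Btc* and *Erbb3* were higher in luminal and *Egfr* in basal cells. There *Hbegf* overlapped, at 746, 2208 and 1553 CPM in basal and 849 to 1269.5 CPM in luminal cells.

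Within the basal compartment, the gates and lobes were close. No gene of the 9 passed edgeR's test of RFP+ against RFP- basal AP cells, where 0.0% of all genes passed, 1 was at an unadjusted p under 0.05 and 0 passed by DESeq2. *Egfr* was measured at 74.7, 47.5 and 43.2 CPM in RFP+ and at 69.5, 39.7 and 48.8 CPM in RFP- basal AP cells, with the gates overlapping and run 1 high in both. In RFP+ basal cells, AP against VP, no gene of the 9 passed edgeR's test either, where 0.362% of all genes passed (42 genes, and 237 with the run as a block), 0 by DESeq2, and 1 at an unadjusted p under 0.05. That gene was *Hbegf*, at 746, 2208 and 1553 CPM in the AP and at 345, 917 and 470.3 CPM in the VP. The AP was higher in every run but the ranges overlapped, with a log2 difference of 1.39 ± 0.41 (SE, adjusted p = 0.1648, edgeR quasi-likelihood test with Benjamini-Hochberg adjustment), and the adjusted p was 0.02712 with the run as a block.

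Of a list of 42 other genes of the pathway, 40 could be tested. In luminal AP cells, 13 of them were higher in RFP+ and 0 lower by the edgeR test, where 22.9% of all genes passed. The count was 7 without run 1, 1 without run 2 and 6 without run 3, so it rested most on run 2. They held feedback inhibitors of the receptors and of ERK, with log2 differences of 3.27 for the phosphatase gene *Dusp4*, 2.25 for *Errfi1*, an inhibitor of EGFR, and 1.99 for *Dusp6*. They also held transcription factors downstream of ERK, *Etv5* (2.58) and *Elk3* (2.01), the receptor *Erbb4* (1.95), and *Timp3* (1.85), an inhibitor of ligand shedding. *Etv4* passed too but had no UMI in RFP- luminal AP cells, so no fold is given. In luminal VP cells, 0 of the 40 passed by edgeR and 0 by DESeq2, and 5 were at an unadjusted p under 0.05.

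Between lobes in the RFP+ gate, 15 of the 40 pathway genes were higher in luminal AP than VP cells and 0 lower, where 25.5% of all genes passed, and 12, 9 and 8 were higher without runs 1, 2 and 3. *Etv5* (log2 difference 3.77), *Dusp6* (2.71), the ERK inhibitor *Spred1* (2.57), *Elk3* (2.41), *Timp3* (2.39) and *Dusp4* (2.10) led, beside *Etv4* and *Spry4*, which had no UMI in the VP sums. In the RFP- gate, 5 were higher in the AP, among them the protease gene *Adam10* (1.67) and the kinase gene *Mapk3* (1.15), and 1 was lower, *Erbb4* (-2.19), where 13.9% of all genes passed. Without runs 1, 2 and 3 the counts were 3, 1 and 2 higher, and 0 lower each time. The difference between the lobes in the RFP contrast passed for 5 genes, all higher in the AP: *Etv4*, *Dusp6* (3.43), *Spred1* (2.38), *Rhbdf1* (2.02), a partner of ADAM17, and *Adam17* (1.61), where 5.53% of all genes passed. The count was 2 without run 1 and 0 without run 2 or without run 3. In RFP- AP against DLP, 0 passed by edgeR, 1 by DESeq2, and 5 were at an unadjusted p under 0.05. In the basal comparisons 0 passed by either tool, with 2 at an unadjusted p under 0.05 between the gates of the AP and 4 between AP and VP.

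Basal and luminal cells of all intact populations did not overlap for 30 of the 41 pathway genes with enough UMIs, 28 higher in basal and 2, *Gab2* and *Erbb4*, higher in luminal cells, where 51.1% of all genes did not overlap. The largest log2 differences in basal cells were those of the neuregulin genes *Nrg2* (5.36; mean 73.6 against 0.814 CPM) and *Nrg1* (3.79), of *Dusp6* (4.87; 329 against 10.3 CPM), *Etv4* (4.46), *Spry4* (3.85) and *Timp3* (3.799), and of *Errfi1* (3.23) and the ligand gene *Epgn* (2.99). The neuregulins are ligands of ERBB3 and ERBB4, and *Erbb3* and *Erbb4* were the receptor genes higher in luminal cells without overlap. *Erbb2* was also higher in luminal cells in each of the 3 runs, at 19.8, 7.15 and 6.497 against 13.2, 4.67 and 3.84 CPM. Its ranges overlapped between the compartments.

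Clusters of the intact mice placed the ligands in different luminal states. *Egf* was measured at 132 CPM in luminal cluster 3, at 13.4 CPM in luminal cluster 1, led by *Scgb2b20*, which held 86.0% to 94.4% of RFP+ luminal VP cells, and at 1.86 CPM in luminal cluster 2. *Btc* was measured at 15.7 CPM in luminal cluster 2. A cluster led by *Ivl*, a gene of squamous cells, could not be named and was left out of the sums. It held 52 intact cells, in which *Areg* was measured at 436 CPM and *Btc* at 16.5 CPM, but 14 cells of run 2 carried all 290 *Areg* UMIs (998 CPM) and all 11 *Btc* UMIs, while 33 cells of run 3 carried 0 of both. Sorted cells outside the epithelium were summed over castrated and intact mice together. Among them, hematopoietic-like cells had *Areg* at 133, 42.7 and 0 CPM by run. Fibroblast-like cells had *Egfr* at 48.1 CPM and *Hbegf* at 398 CPM.

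Castrated and intact cells could be compared within run 2 alone, with 1 pool of mice for each, so values are given with exact Poisson or conditional 95% intervals that cover counting error only, and without a test. Of 34 pairs of gene and population with at least 10 UMIs in the larger sum, 14 differed at least 2-fold, 11 higher and 3 lower after castration, where 25.8% of 51905 such pairs over all genes did. In RFP- luminal AP cells, *Egf* was measured at 15.9 CPM after castration and 89.5 CPM in intact mice, which was 5.62-fold lower (a ratio of 0.178, interval 0.0983 to 0.298), in a population where 22.1% of genes passed 2-fold. In RFP- luminal DLP cells *Egf* was measured at 23.4 against 68.2 CPM (ratio 0.344, interval 0.166 to 0.643; 21.2% of genes passed), but at a finer clustering the log2 ratio was 0.072. At the main clustering, the castrated *Egf* levels of both sums, which mixed clusters, were close to that of intact RFP+ luminal AP cells. By cluster, *Egf* was measured at 93.8 CPM in the 11 castrated cells of luminal cluster 3 (8 UMIs, interval 40.5 to 184.7). It was measured at 4.84 CPM in the 336 castrated cells of luminal cluster 5.

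In RFP+ luminal AP cells, *Btc* was the gene that passed, at 48.3 CPM after castration against 7.11 CPM in run 2 (6.80-fold, interval 3.70 to 13.9), where 19.9% of genes passed 2-fold. The castrated level was also higher than the intact levels of runs 1 and 3 (11.97 and 11.3 CPM). A *Btc* UMI was found in 35.98% of these cells after castration and in 15.4%, 10.5% and 13.01% of intact cells by run, against 1.12%, 0.557% and 0.0932% of intact basal cells. Castrated RFP+ luminal DLP cells, which had no intact partner in run 2, were at the same level (48.2 CPM, 36.4% of cells), and the 11 castrated RFP+ luminal cells of pooled lobes in run 1 were at 39.0 CPM. *Tgfa* was measured at 25.2 against 12.9 CPM (1.95-fold, interval 1.19 to 3.35) and *Egf* at 7.71 against 14.9 CPM (ratio 0.518, interval 0.284 to 0.951).

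*Areg* in RFP+ luminal AP cells was measured at 178 CPM after castration against 122.8 CPM in run 2 (1.45-fold), and at 136 CPM in castrated RFP+ luminal DLP cells. The share of RFP+ luminal AP cells with an *Areg* UMI was 39.7% after castration against 33.7% in intact mice of run 2, and 5.77% and 10.96% in those of the other runs. *Hbegf* (783 against 917 CPM), *Egfr* (11.6 against 15.52 CPM), *Erbb2* (10.4 against 17.5 CPM) and *Erbb3* (34.99 against 36.9 CPM) were under 2-fold lower after castration. Different clusters held most of these cells: 83.6% of castrated RFP+ luminal AP cells (158 of 189) and 86.7% of castrated RFP+ luminal DLP cells (124 of 143) fell in luminal cluster 5, led by *Pnliprp2* and *Lpl*, where intact RFP+ luminal AP cells fell in luminal cluster 2. In luminal cluster 5 of castrated mice, *Btc* was measured at 56.2 CPM and *Areg* at 166 CPM.

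*Hbegf* in RFP- luminal AP cells was measured at 357 CPM after castration against 98.0 CPM (3.64-fold, interval 3.11 to 4.25), and *Erbb2* at 4.25 against 10.4 CPM (ratio 0.410, interval 0.106 to 1.15, on 4 and 34 UMIs). Of these castrated cells, 72.9% (35 of 48) fell in luminal cluster 5. *Hbegf* in RFP- luminal DLP cells was measured at 196 against 194 CPM, where 60% of the castrated cells (12 of 20) fell in luminal cluster 5. In RFP+ basal AP cells *Areg* was measured at 54.0 against 10.4 CPM (5.21-fold, interval 2.80 to 10.6), where 17.1% of genes passed. However, 5 castrated cells carried 92.6% of its UMIs, and with the *Ivl* cluster counted as basal the log2 ratio was -0.64. *Erbb3* was measured there at 11.9 against 3.46 CPM (3.45-fold, interval 1.10 to 14.3), on 15 and 4 UMIs. The intact levels of runs 1 and 3, at 8.13 and 10.3 CPM, were closer to the castrated level than that of run 2. *Hbegf* (2385 against 2208 CPM) and *Egfr* (44.5 against 47.5 CPM) were under 2-fold. Castrated RFP+ basal AP cells fell mostly in basal cluster 4, led by *Dio3* and *Cxcl14* (146 of 156), and intact ones in basal cluster 0 (94 of 108).

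In RFP+ luminal VP cells, 7 of 8 genes were at least 2-fold higher after castration, but so were most genes that differed: 47.5% of genes passed 2-fold, and the median log2 ratio over all genes was 0.91. These cells held 19117 UMIs each after castration against 47742 in intact mice, and the immediate early genes summed to 13140 against 4529 CPM. *Areg* was measured at 12.2 against 0.921 CPM (13.3-fold, interval 5.93 to 33.6), *Hbegf* at 603 against 174 CPM (3.46-fold, interval 3.22 to 3.72) and *Egf* at 15.6 against 14.4 CPM (1.09-fold). With TMM factors, which rescale libraries to the bulk of genes, the log2 ratios were 2.74 for *Areg*, 1.18 for *Tgfa*, 1.16 for *Egfr*, 0.82 for *Erbb3*, 0.80 for *Hbegf*, 0.43 for *Btc*, 0.31 for *Erbb2* and -0.88 for *Egf*. Only *Areg*, *Tgfa* and *Egfr* then stayed over 2-fold, and *Egf* changed sign. The castrated cells fell mostly in luminal cluster 9 (104 of 124), led by *Ang5* and *Crym*, and the intact ones in luminal cluster 1. In RFP+ basal VP cells, where 22.2% of genes passed, none of 3 genes did.

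**Figure D3:**
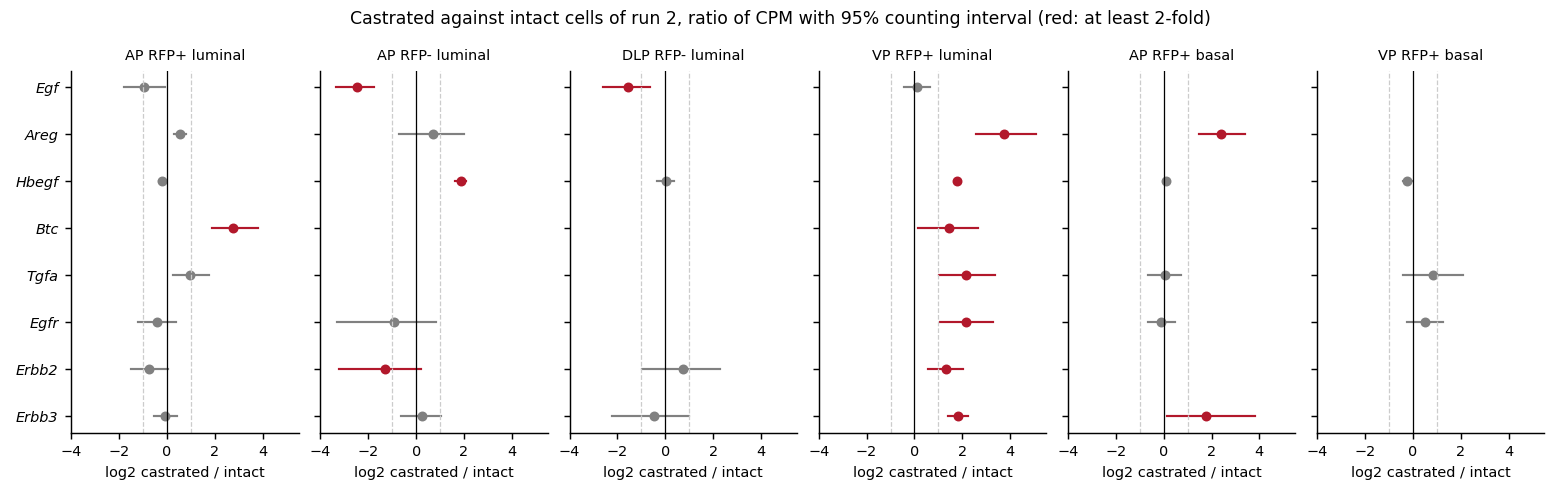
Log2 ratio of castrated to intact CPM in run 2, 1 panel per population, with bars for the 95% counting interval and red points for ratios of at least 2-fold. Genes with under 10 UMIs in the larger sum are left out. *Egf* lies under 0 in RFP- luminal AP cells (ratio 0.178) and *Btc* over 0 in RFP+ luminal AP cells (6.80-fold).

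In RFP+ luminal AP cells, 7 of 31 pathway genes were at least 2-fold higher after castration and 0 lower, close to the 19.9% of all genes past 2-fold: *Spry1*, a feedback inhibitor of receptor signalling (9.72-fold), *Myc* (3.63), *Rhbdf2* (3.33), *Spry4* (2.75, interval 0.803 to 14.6), *Errfi1* (2.73), *Dusp4* (2.29, interval 0.862 to 7.67) and *Socs5* (2.26). In RFP- luminal AP cells 4 of 28 were higher, *Errfi1* (7.401-fold), *Timp3* (5.51), *Myc* (3.75) and *Rhbdf1* (2.75), and 4 lower, where 22.1% of all genes passed (547 higher and 1541 lower). In RFP- luminal DLP cells 5 of 24 were higher and 12 lower, where 21.2% of all genes passed. That comparison leaned low over all genes, with 163 higher and 1417 lower and a median log2 ratio of -0.347, on 20 castrated cells. In RFP+ luminal VP cells, where 47.5% of all genes passed, 18 of 31 were higher and 0 lower, led by *Spry1* (11.3-fold), *Dusp6* (8.83), *Errfi1* (7.27) and *Spry2* (6.31). *Errfi1* was at least 2-fold higher in all 4 luminal populations. In basal cells 0 of 32 were higher and 3 lower in the AP (17.1% of all genes passed), and 1 of 31 higher and 6 lower in the VP (22.2%).

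In UGS explants, prostatic-like cells (465, 441, 939 and 1965 cells on days 0, 1, 3 and 6) had much more *Areg* early than late. *Areg* was measured at 56.9, 54.1, 14.2 and 7.71 CPM on the 4 days, *Btc* at 3.96, 4.99, 1.47 and 0.852 CPM, and *Hbegf* at 183, 200.7, 142 and 116 CPM. For all 3 ligands in these cells, days 0 and 1 were higher than days 3 and 6. Of 21 pairs of gene and step with enough UMIs, 2 differed at least 2-fold, where 8.42% of 39252 such pairs over all genes did. They were *Areg* and *Btc* from day 1 to day 3, with ratios of 0.263 (interval 0.225 to 0.307) and 0.295 (interval 0.175 to 0.484), a step at which 9.73% of genes passed. The *Btc* call was lost with every cell scaled to the same total (log2 ratio -0.92) and over all assigned explant cells (-0.30), and over the latter the *Areg* call was lost too (-0.93). The share of genes past 2-fold was 8.9% from day 0 to 1 and 6.7% from day 3 to 6, and none of the 9 genes passed there.

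Among the receptors, *Erbb3* was measured at 34.9, 22.5, 11.2 and 7.57 CPM, lower on each later day, with ratios of 0.643 (interval 0.546 to 0.757), 0.501 (interval 0.411 to 0.609) and 0.673 (interval 0.552 to 0.821) per step. *Egfr* went the other way, at 9.28, 9.22, 9.60 and 18.8 CPM, level until day 3 and 1.95-fold higher on day 6 (interval 1.64 to 2.34). *Erbb2* was measured at 20.4, 17.7, 9.77 and 10.1 CPM. *Tgfa* stayed between 3.18 and 3.79 CPM, and *Egf* (0.273 to 0.506 CPM) and *Ereg* (0 to 0.675 CPM) were near the floor. The immediate early genes summed to 10956, 12085, 9990 and 8062 CPM on the 4 days, and their part in these values was not tested.

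**Figure D4:**
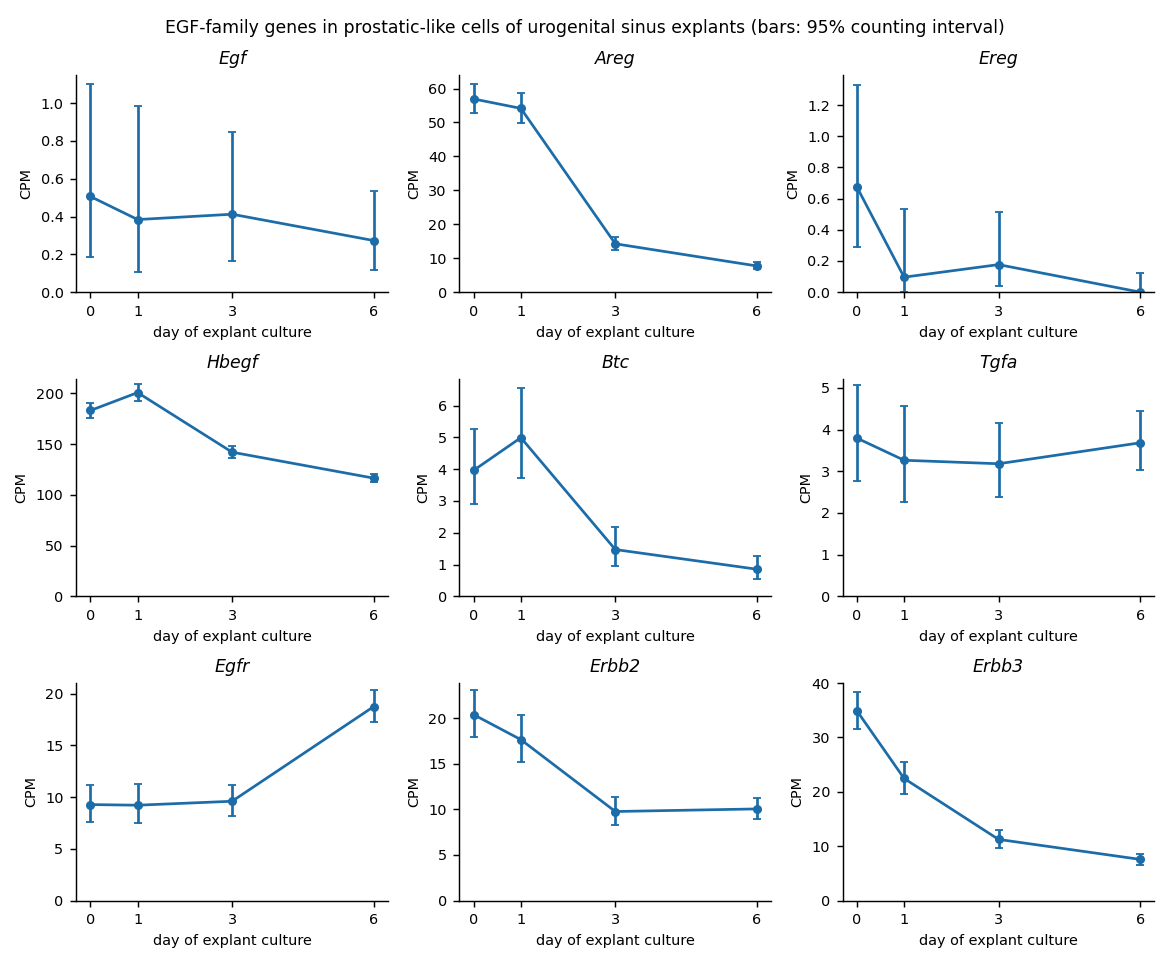
CPM of each gene in prostatic-like explant cells by day of culture, 1 panel per gene, with 95% counting intervals. *Areg* goes from 56.9 CPM on day 0 to 7.71 CPM on day 6, *Erbb3* from 34.9 to 7.57 CPM, and *Egfr* from 9.28 to 18.8 CPM.

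An explant cluster of 238 cells led by *Spink5*, *Psca* and *Arg1* was left unnamed and out of the prostatic-like cells. It scored highest for stressed cells, but none of its top 10 genes by fold was a stress or prostatic marker and 3 were proximal luminal markers, *Psca*, *Ly6d* and *Krt4*. Its prostatic markers averaged 1736 CPM per marker gene, against 677 to 1764 CPM in the 3 clusters named prostatic-like. *Areg* in it was measured at 607, 230 and 131 CPM on days 1, 3 and 6. With this cluster counted as prostatic, the log2 ratio of *Areg* was 0.53 from day 0 to 1, -1.16 from day 1 to 3 and -1.52 from day 3 to 6, so the direction of the 2 later steps was kept and that of the earliest was not. From day 0 to 1 and from day 1 to 3, the log2 ratios were then 0.35 and -0.22 for *Hbegf* and 0.54 and -0.55 for *Btc*, so that day 3 was no longer lower than day 0 for *Hbegf* and about level with it for *Btc*, whose step from day 1 was under 2-fold. Other explant cells had *Areg* at 47.8 CPM (urothelium-like), 24.7 CPM (mesenchyme-like) and 5.95 CPM (mesonephric-like). Of the pathway list, *Etv4* (5.93-fold), *Etv5* (5.75-fold) and *Lrig1* (5.69-fold), which encodes an inhibitor of ERBB receptors, were at least 2-fold higher on day 1 than on day 0 and *Gab2* was lower (ratio 0.427), of 38 genes. On day 3, 0 of 37 were higher and 2 lower than on day 1, *Errfi1* (ratio 0.428) and *Dusp4* (0.486), and on day 6, 2 of 39 were higher than on day 3, *Epgn* (2.99-fold) and *Errfi1* (2.33-fold).

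Across the 40 adult sums, the genes whose log2(CPM + 1) followed each member most closely were found among the up to 2302 genes that averaged 50 CPM or more, as a description without a test, since sums of a run share a library and each compartment gives several sums. *Egf* was most like *P4hb* (Pearson r = 0.915), *Ssr4* (0.915) and *Pdia6* (0.914). *Hbegf* was most like *Zfp36l1* (0.939), *Fam107b* (0.902) and *Mcl1* (0.901), and *Areg* like *Foxq1* (0.842), *Ehd4* (0.781) and *Pmepa1* (0.779). *Egfr* was most like *Crim1* (0.961), *Zfp36l2* (0.96) and *Ppfibp1* (0.954), *Erbb3* like *Cldn7* (0.87), *Crb3* (0.85) and *Bex1* (0.843), and *Erbb2* like *Clcn3* (0.759), *Sys1* (0.757) and *Tmem205* (0.744).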

How the data were processed

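Droplets were sequenced with the 10x 3' v3 chemistry, and the authors deposited UMI counts per gene and cell, made with Cell Ranger 3.1.0 against mm10. From these counts, cells were kept at 750 to 7500 genes and under 10% mitochondrial UMIs (adult) or at least 1000 genes and under 7.5% (explant), and lipid barcodes were assigned to 1 population per cell. Clusters were made with Seurat 5.3.0 without the 9 genes and the pathway list, and named from marker lists; 128 of 4175 cells in epithelial clusters were left out for markers of other types. Scrublet (scanpy 1.11.5) called 0 to 8 cells per library, under 0.5%, so it has not worked, and cells with more than 1 lipid barcode were removed instead. The authors' own doublet caller was not used here.

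UMIs were summed per run, lobe, gate and compartment (at least 10 cells). Intact sums were fitted together with edgeR 4.0.16 (TMM, filterByExpr, quasi-likelihood test, Benjamini-Hochberg adjustment over 11616 genes); all 9 genes passed the filter, *Ereg* through basal sums. DESeq2 1.42.0, the run as a block and other settings were alternatives. The sums of a run share a library, so runs pair the sums, and deviations of the same run correlated at 0.141 to 0.499, except RFP- AP against VP in run 2 (0.032). Castrated lobes and explant days had 1 sum each and were compared by size, at least 2-fold with 10 UMIs in the larger sum. On simulated data for luminal AP RFP+ against RFP- (11616 genes, 200 changed), edgeR recovered 42% of 2-fold and 98% of 4-fold changes, with 6.04% false calls. The simulated sums were drawn independently from the mean of each gene over all sums. They held no shared run effect and no other difference between populations, so these rates need not hold for the real sums. The runs held 35051876, 86381807 and 40087244 UMIs and the explant library 121090404. Intervals cover counting error only. The members and lists were chosen with earlier results of these data known. Pathway genes named are up to 8 per comparison, those past the threshold with the largest log2 change, and genes of like pattern are the 3 of highest r. 1 marker of the proximal luminal list is not reported here, and the other 4 are given.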

Additional observations from a re-analysis of the deposited data

Results flagged for a closer look

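The RFP contrast of luminal cells differed between the AP and the VP for 2 ligands, by the test of the difference itself (edgeR quasi-likelihood test, Benjamini-Hochberg adjustment): *Egf* by -2.5235 on the log2 scale (adjusted p = 0.000833) and *Hbegf* by 2.3438 (adjusted p = 0.01675). The RFP+ AP sums were lower than the RFP- AP sums in *Egf* in 3 of 3 runs and higher in *Hbegf* in 3 of 3 runs. Both calls were lost without run 2, and that of *Hbegf* also without run 3.

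Some cells that no comparison used held more of a ligand than intact basal-like or luminal-like cells did when all populations of a compartment were summed, though single populations could be higher: *Areg* was measured at 122.8 CPM in RFP+ luminal AP cells of run 2. *Areg* was measured at 49.996 CPM in 389 adult hematopoietic-like cells (208 UMIs, interval 43.4 to 57.3), summed over castrated and intact mice together. The higher of all intact basal-like and all intact luminal-like cells was at 7.22 CPM. The intact cells of the *Ivl* cluster had *Areg* at 435.86 CPM and *Btc* at 16.532 CPM, against 7.22 and 3.25 CPM by the same measure. The unnamed explant cluster of 238 cells had *Areg* at 250.86 CPM, *Ereg* at 4.6501 CPM, *Hbegf* at 671.57 CPM and *Btc* at 21.048 CPM, against 24.9, 0.175, 147 and 2.17 CPM in prostatic-like cells of all days together.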

How the results depend on the processing

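Counts of the 9 genes past the threshold moved as follows, and where a construction does not show the cause, the cause was not tested. For RFP+ against RFP- luminal AP cells the count was 6 with all runs, 3 to 5 when each run was left out, and 2 among cells under 7500 UMIs, where few genes could be tested. The VP contrast stayed at 0 when a run was left out. The test of the difference between the lobes gave 2, and 0 to 2 when a run was left out. For RFP- AP against VP it was 1, then 3 without a filter, 2 with the 2 groups alone, and 1 to 2 when a run was left out. For RFP- AP against DLP it was 0, then 1 by DESeq2, without a filter, with the run as replicate block and without the highest 6% of Scrublet scores, 2 at resolution 0.6, and 0 to 1 when a run was left out. For RFP+ AP against VP it was 4, and 2 to 4 when a run was left out, and in basal RFP+ AP against VP 0, then 1 without a filter and with the replicate block. The basal AP contrast stayed at 0 when a run was left out.

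Castration gave 14 pairs past 2-fold, 10 with TMM factors, 21 at 1.5-fold and 2 among cells under 7500 UMIs, where few pairs had enough UMIs. The explant gave 2, then 1 with every cell scaled to the same total, 4 without the highest Scrublet scores, 8 at 1.5-fold and 4 with the unnamed cluster kept. Basal against luminal gave 7 without overlap, 4 among cells under 7500 UMIs and 7 to 8 when a run was left out. Turned in direction were *Egf* after castration in RFP- luminal DLP cells (log2 0.072 at resolution 0.6), *Areg* in castrated RFP+ basal AP cells (-0.64 with the *Ivl* cluster kept) and *Tgfa*, basal minus luminal (-0.55 CPM among cells under 7500 UMIs).

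Genes called over the whole table went from 42 to 228 without a filter and 95 by DESeq2 in the VP contrast, from 42 to 290 without a filter and 0 without run 2 or run 3 in basal RFP+ AP against VP, from 179 to 487 at resolution 0.6, 451 with the replicate block and 427 without a filter in RFP- AP against DLP, from 0 to 26 without a filter and 2 by DESeq2 in the basal AP contrast, and from 642 to 1414 with the replicate block in the test between lobes. The *Ivl* cluster, the unnamed explant cluster and the test between lobes were chosen as alternatives after seeing the data. Among cells under 7500 UMIs the contrasts with VP sums had too few cells and were not run. At these depths genes under about 1 CPM, *Ereg* above all, could not be compared between populations.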
